A study of Mus musculus with 6 samples.

Results

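The AP-1 and EGR immediate early factors were examined in glomerular endothelial cells (GEC) of normal and db/db mice. The group holds 10 genes, chosen by name, namely Fos, Fosb, Fosl2, Jun, Junb, Jund, Atf3, Egr1, Egr2 and Nr4a1. Each had 1 probeset with a single annotated symbol, so the 10 genes stand for 10 of the 35557 probesets of the array, and all 10 passed the level filter, which asks for a linear signal of 100 in at least 3 arrays. The 3 normal samples came from Tie2-GFP/ +/+ mice and the 3 diabetic samples from Tie2-GFP/ DB/DB mice, whose leptin receptor is defective and which grow obese and diabetic. All animals were 7 months old. Both groups carried the Tie2-GFP transgene, in which the promoter of the endothelial receptor Tie2 drives a green fluorescent protein, and the same promoter is also active in some blood cells. The glomeruli were sieved, digested with collagenase and trypsin, triturated and sorted for green cells before 1 Affymetrix Mouse Gene 1.0 ST array was run per sample. The labels call the samples biological replicates, and 3 arrays per group set the precision.

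Immediate early genes are switched on within minutes of a stimulus without new protein synthesis, as MAP kinases activate factors such as SRF, its ternary complex partners and CREB that already sit on the promoters. Fos and Jun proteins pair through leucine zippers to form AP-1, which binds DNA and switches on a second wave of genes, Atf3 is a related zipper protein that often represses, EGR proteins are zinc finger factors, and Nr4a1 is an orphan nuclear receptor. In endothelium these factors respond to growth factors, cytokines, shear stress and injury. The same genes are also known to be induced while tissue is digested into single cells. Every sample here was dissociated and sorted, so signal present in the glomerulus and signal gained during isolation cannot be told apart.

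Promoter sequence is shown for the 3 genes whose normal and db/db arrays did not overlap (Atf3, Egr2 and Jun) and for Fos, the best known immediate early gene. The sequences are those of RefSeq on GRCm38.p6, whose table matched 9 of the 10 genes, all except Egr1. Capitals mark matches to the motifs searched, and position -1 is the base before the transcription start. For Egr2 a stretch of 30 bases is given around each of the 2 CArG boxes, the sequence that SRF binds. In these stretches only the CArG box is in capitals and other matches are not marked. Egr2 has several annotated starts, and each box lies before at least 1 of them. The lines are Atf3 at chr1:191183334-191183583 (minus strand, -250 to -1), Jun at chr4:95052223-95052472 (minus strand, -250 to -1), Fos at chr12:85473750-85473889 (plus strand, -140 to -1) and Egr2 at chr10:67537484-67537513 and chr10:67537787-67537816 (plus strand).
Atf3: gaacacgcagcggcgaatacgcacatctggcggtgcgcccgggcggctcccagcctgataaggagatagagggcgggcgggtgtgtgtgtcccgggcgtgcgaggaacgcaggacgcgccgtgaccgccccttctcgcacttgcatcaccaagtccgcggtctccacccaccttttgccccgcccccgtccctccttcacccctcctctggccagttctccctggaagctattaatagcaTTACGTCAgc
Jun: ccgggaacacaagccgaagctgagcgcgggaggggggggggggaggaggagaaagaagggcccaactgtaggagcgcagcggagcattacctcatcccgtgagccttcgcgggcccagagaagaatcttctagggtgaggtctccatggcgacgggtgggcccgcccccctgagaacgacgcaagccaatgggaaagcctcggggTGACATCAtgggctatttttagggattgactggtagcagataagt
Fos: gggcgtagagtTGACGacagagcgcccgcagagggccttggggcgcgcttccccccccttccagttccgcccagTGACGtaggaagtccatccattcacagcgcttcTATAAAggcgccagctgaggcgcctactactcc
Egr2, upstream box: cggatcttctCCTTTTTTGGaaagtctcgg
Egr2, downstream box: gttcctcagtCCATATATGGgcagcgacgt

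Motifs were searched on both strands of the 300 bases around each start, 250 before and 50 after, and shares are given over all 32817 such promoter windows of the table. A gene was counted when any of its windows held the motif, and Egr2 had 5 windows. Counts of genes and shares of windows are therefore not like measures. The full cAMP response element TGACGTCA, which CREB and ATF proteins bind, was in none of the 9 genes and in 1.79% of all windows. Its first letters alone, TGACG, were in 6 of the 9 (Atf3, Egr2, Fos, Fosb, Junb and Nr4a1) and in 20.8% of all windows. The AP-1 site TGANTCA was in none of the 9 and in 7.81% of all windows. Jun and Atf3 hold related letters, TGACATCA starting at -45 in Jun (3.62% of windows) and TTACGTCA starting at -10 in Atf3 (0.497% of windows), which were searched after the sequences had been seen, and the second contains TGACG on its reverse strand. The EGR site GCGNGGGCG was in Fosb, Fosl2 and Nr4a1 and in 5.56% of all windows. The CArG box was in Egr2 and in 1.63% of windows. TATAAA was in Fos and Junb and in 13.6% of all windows. The match in Fos started at -33, and that in Junb began at the transcription start itself and not before it. A match is a description of letters and not a bound site, and a window without a match says nothing about sequence farther away.

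The labelled cell type was borne out by its markers. The 10 endothelial markers, among them Kdr and Emcn, had a summed signal of 15.93 to 15.95 on the log2 scale in normal and 15.93 to 15.98 in db/db arrays. Of 11 leukocyte markers 6 lay below 100 in every array, among them Ptprc, the common leukocyte antigen, and the summed signal of the 11 was 10.27 to 10.82 in normal and 10.16 to 10.40 in db/db arrays. Of 4 podocyte markers 1, of 5 mesangial and smooth muscle markers 2 and of 7 tubule markers 3 lay below 100 in every array. The summed signals were 8.77 to 8.85 and 8.82 to 9.03 for podocyte, 9.49 to 9.83 and 9.79 to 9.98 for mesangial and 9.52 to 9.74 and 9.69 to 9.81 for tubule markers, in normal and db/db arrays. The part of other cells in the values below was not tested. The probesets that read alpha-globin were lower in every db/db array than in any normal one, at changes of -2.07 ± 0.33 and -2.05 ± 0.35 (log2, limma SE), and so were both adult beta-globin probesets, each at -1.77 ± 0.22 (adjusted p = 0.282). Of 4 other blood and platelet genes Ppbp, at -0.84 ± 0.48, and Pf4, at -0.66 ± 0.39, had overlapping groups and Itga2b was higher in each db/db array, at 0.26 ± 0.12, and the summed signal of the 4 was 9.70 to 10.17 in normal and 9.08 to 9.77 in db/db arrays. Lepr, the gene mutated in db/db mice, lay below 100 in all 6 arrays and so does not check the labels. On the first principal component normal replicate 2 lay far from the other 5 arrays.

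Signal of the factors other than Jun was modest. The 9 genes ran from 97.8 to 449.6 on the linear scale over all arrays, and their probesets stood between the percentiles 41.3 and 77.0 of the 35557 probesets of the same array. Only Fosb fell below 100 in any array, and did so in 1 of 6. Jun alone was high, at 3355 to 4455 and at the percentiles 96.2 to 97.5. A probeset's rank depends on how well its probes bind as well as on the transcript, so these ranks do not order the genes by abundance. No array of undissociated glomeruli or of cells taken without digestion was part of the comparison, and no level was therefore set against an unstressed one.

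**Figure D1:**
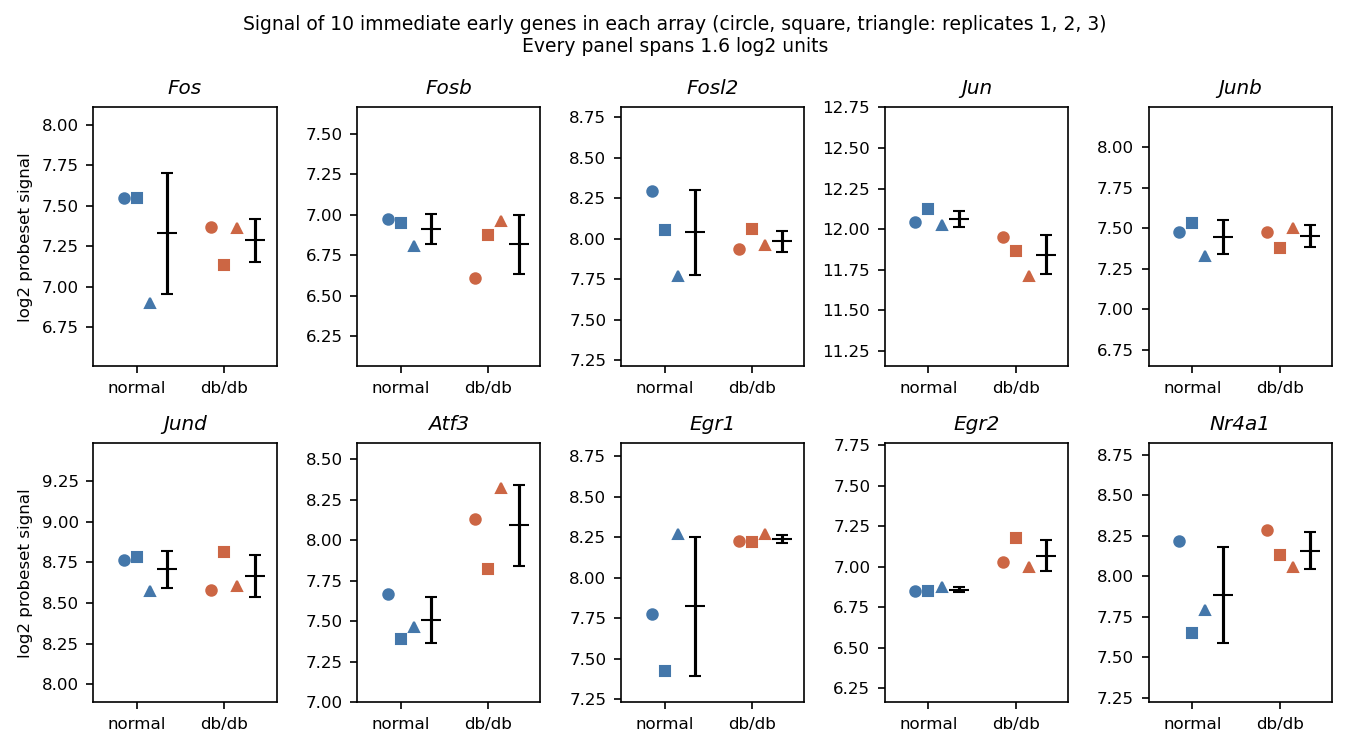
Log2 probeset signal of each gene in each array of normal (blue) and db/db (orange) GEC, with circles, squares and triangles for replicates 1, 2 and 3 and bars for each group mean with its SD (n = 3). All db/db points lay above the normal points for Atf3 and Egr2 and below them for Jun, and the groups overlapped for the other 7 genes.

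Of the 10 factors 0 passed limma's test adjusted over all probesets (smallest adjusted p = 0.626, for Atf3), as did 0 of 20661 probesets (0%). Before adjustment 2 of the 10 had a p under 0.05, Atf3 and Egr2, both higher in db/db, where 6.39% of all probesets had such a p 3.48% with a higher and 2.91% with a lower db/db mean. The groups did not overlap for 3 of the 10, higher for Atf3 and Egr2 and lower for Jun, against 12.3% of all probesets (7.01% higher and 5.31% lower). The median change of the 10 was -0.02 on the log2 scale, beside 0.01 for all tested probesets. The mean was higher in db/db for 5 of the 10 and lower for 5, against 53.9% and 46.1% of all. With 3 arrays per group the smallest two-sided p of an exact permutation test is 0.1, and none was run on single genes. With the methods' t-test 3 of the 10 (Atf3, Egr2 and Jun) and 1280 of 20661 probesets had a p under the methods' threshold. Of these 0 and 313 were also past the 1.5-fold change that the study required. Atf3, at 1.499-fold, fell just short of it. After Benjamini-Hochberg adjustment 0 of either remained.

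The Fos family gave the partners that must pair with Jun proteins to bind DNA. Fos, its founding member, had a log2 signal of 7.55, 7.55 and 6.90 in normal replicates 1 to 3 and of 7.37, 7.13 and 7.36 in diabetic replicates 1 to 3. Normal replicate 3 was the lowest of all 6 arrays and the other normal arrays were the highest, so the db/db arrays lay inside the normal range. The change in Fos was -0.04 ± 0.20 (log2, db/db minus normal, limma SE), with a 95% interval of -0.55 to 0.46. Without normal replicate 1, without normal replicate 2 or without diabetic replicate 2 its sign turned.

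Fosb, which is spliced into a full length and a shortened form, gave 6.98, 6.95 and 6.81 in normal and 6.61, 6.88 and 6.96 in db/db arrays. The lowest value belonged to diabetic replicate 1 and the others lay between 6.81 and 6.98, and the change was -0.09 ± 0.12 (interval -0.39 to 0.20). Fosl2, also called Fra-2, gave 8.29, 8.06 and 7.77 in normal and 7.93, 8.06 and 7.96 in db/db arrays. Here too normal replicate 3 was the lowest array and the db/db arrays fell inside the normal range, with a change of -0.06 ± 0.15 (interval -0.42 to 0.31). All 3 genes of the family thus had a slightly lower mean in db/db, between -0.09 and -0.04, with overlapping groups, and Fosb and Fosl2 each turned sign when 1 array was left out.

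In the Jun family Jun, a strong activator, gave 12.04, 12.12 and 12.02 in normal and 11.95, 11.86 and 11.71 in db/db arrays. Each db/db array lay below each normal array. The mean went from 12.06 ± 0.05 to 11.84 ± 0.12 (SD, n = 3 per group), a change of -0.22 ± 0.09 or 1.16-fold, with an interval of -0.45 to 0.01. Limma's adjusted p was 0.785 (adjusted over all probesets, from an unadjusted 0.0601). The unadjusted p was under 0.05 with an intensity trend, with no level filter, with the methods' t-test and without diabetic replicate 1, and the adjusted p was 0.683 or more under every alternative.

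Junb, which often acts against Jun, gave 7.48, 7.53 and 7.33 in normal and 7.48, 7.38 and 7.50 in db/db arrays, the narrowest spread of the 10 genes at 0.20. The change was 0.01 ± 0.09 with an interval of -0.22 to 0.23, and its sign turned with quantile normalization and with median centring. Jund, the member that many cells express without a stimulus, gave 8.76, 8.78 and 8.58 in normal and 8.58, 8.81 and 8.61 in db/db arrays. Diabetic replicate 2 was the highest and normal replicate 3 the lowest, and the change was -0.04 ± 0.11 (interval -0.31 to 0.23).

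Atf3, a stress-induced zipper protein, had the largest change of the 10. It gave 7.67, 7.39 and 7.46 in normal and 8.13, 7.82 and 8.32 in db/db arrays. Each db/db array was above each normal array, the nearest being diabetic replicate 2 and normal replicate 1. The mean went from 7.51 ± 0.14 to 8.09 ± 0.25 (SD, n = 3 per group), which is 1.499-fold. The change was 0.58 ± 0.16, with an interval of 0.20 to 0.97. Limma's adjusted p was 0.626 (from an unadjusted 0.0105, at rank 340 of the 20661 probesets), so Atf3 did not pass. Its change stayed between 0.47 and 0.72 when the normalisation, the array weights or the arrays included were altered. The other alternatives left the estimate as it was by construction. Its adjusted p ran from 0.463 to 0.930 over 18 alternatives. Without each of the 6 arrays in turn the unadjusted p remained under 0.05. Among markers of other cells Cd68, a macrophage gene named after its values were seen, was also higher in each db/db array. It gave 6.63, 6.72 and 6.81 in normal and 7.95, 7.59 and 6.91 in db/db arrays. Limma's adjusted p for Cd68 was 0.752. Of the 4 tested leukocyte markers the other 3 had a lower mean in db/db and the median change was -0.20. Cd14, a monocyte gene, was lower in each db/db array, at -0.71 ± 0.41 (adjusted p = 0.840), with 8.70, 9.97 and 8.43 in normal and 8.30, 8.38 and 8.31 in db/db arrays. The macrophage genes Itgam, Csf1r and Emr1 lay below 100 in every array, with changes of 0.01, 0.07 and 0.00, and Lyz2, below the level filter, had a change of 0.61 with overlapping groups. The leukocyte markers thus did not move one way. All 3 tested podocyte, 2 mesangial and smooth muscle and 4 tubule markers had a higher mean in db/db, as 53.9% of all tested probesets did. Wt1 and Umod were higher in each db/db array, as 7.01% of all were. The part of any of these markers in the Atf3 values was not tested.

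Egr2, a zinc finger factor best known from hindbrain and Schwann cells, gave 6.85, 6.85 and 6.87 in normal and 7.03, 7.17 and 7.00 in db/db arrays. Its normal arrays lay closer together than those of any other gene of the group, and each db/db array was above them. The mean went from 6.86 ± 0.01 to 7.07 ± 0.09 (SD, n = 3 per group), or 1.16-fold, with a change of 0.21 ± 0.08 and an interval of 0.00 to 0.42. Limma's adjusted p was 0.776 (from an unadjusted 0.0479). At 115.1 to 144.5 on the linear scale Egr2 stood only just above the level filter, and it was not tested at a level of 200. Its unadjusted p was 0.05 or more with quantile normalization, median centring, array weights, the replicate block or 1 probeset per gene. The same held without each of the 6 arrays in turn.

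Egr1, which growth factors and shear stress induce in endothelium, gave 7.78, 7.42 and 8.27 in normal and 8.23, 8.22 and 8.27 in db/db arrays. The db/db arrays lay close together, with an SD of 0.03 against 0.43 in normal arrays, and normal replicate 3 reached the level of the db/db arrays. The change was 0.42 ± 0.22, 1.33-fold, with an interval of -0.12 to 0.95 and limma's adjusted p of 0.825. It ran from 0.22 without normal replicate 2 to 0.64 without normal replicate 3. In the latter fit the unadjusted p was under 0.05 and the groups did not overlap, and the adjusted p of Egr1 over the alternatives was 0.580 to 0.981.

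Nr4a1, also called Nur77, gave 8.22, 7.65 and 7.79 in normal and 8.28, 8.13 and 8.06 in db/db arrays. Normal replicate 1 lay among the db/db arrays and the other normal arrays lay below all of them. The change was 0.27 ± 0.17, 1.21-fold, with an interval of -0.14 to 0.69 and an adjusted p of 0.843. Without normal replicate 1 it was 0.44, with an unadjusted p under 0.05, whereas it was 0.16 both without normal replicate 2 and with array weights, with an unadjusted p over 0.05. Egr1, Egr2 and Nr4a1 all had a higher mean in db/db, as 53.9% of all tested probesets did.

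**Figure D2:**
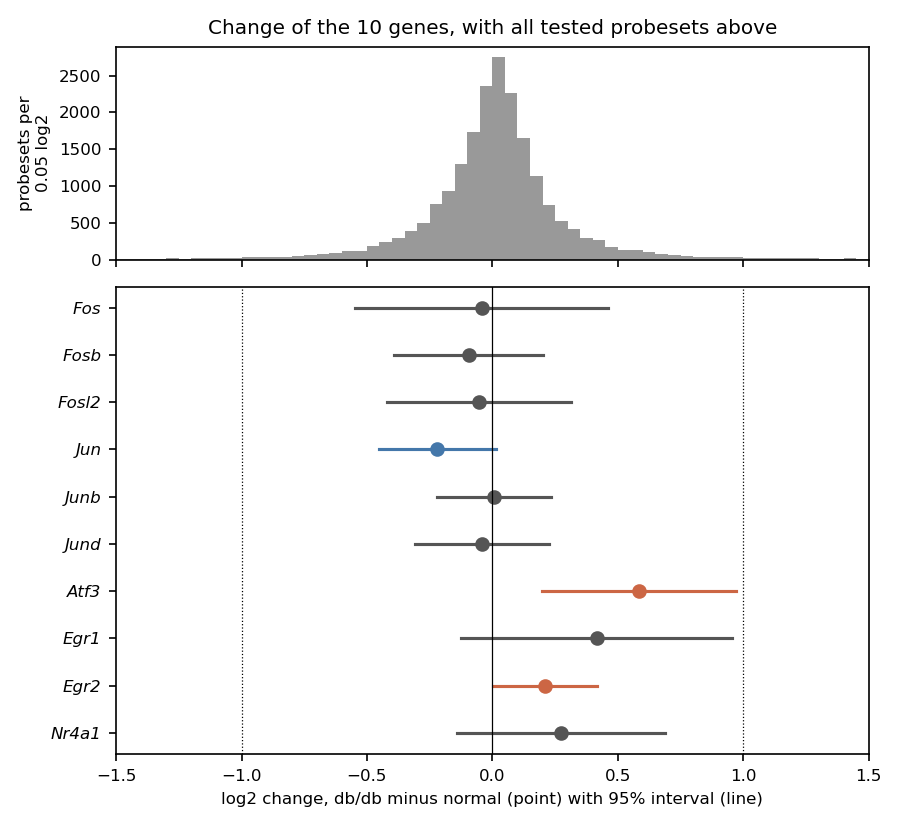
Log2 change of each gene, db/db minus normal (points), with its 95% interval from limma (lines), in orange or blue where the db/db arrays were all above or all below the normal ones and in grey where the groups overlapped. The upper panel counts all tested probesets by their change, and dotted lines mark a log2 change of 1 in either direction, inside which all 10 intervals lay.

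The intervals bound the size of change in probeset signal that these arrays leave room for. For all 10 genes the 95% interval, taken 1 gene at a time, lay inside a 2-fold change in either direction, as it did for 82.6% of all tested probesets. For 7 of the 10 it lay inside a 1.5-fold change, against 60.1% of all, and the 3 exceptions were Atf3, Egr1 and Nr4a1. Of these 7, Fos, Fosb, Junb and Egr2 had a linear signal of at most 187 in every array. How closely so low a signal follows the transcript was not tested, so their narrow intervals bound the reading only. The residual SD of the 10 ran from 0.07 for Egr2 to 0.30 for Egr1, with 5 above and 5 below the median of all tested probesets, 0.18.

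**Figure D3:**
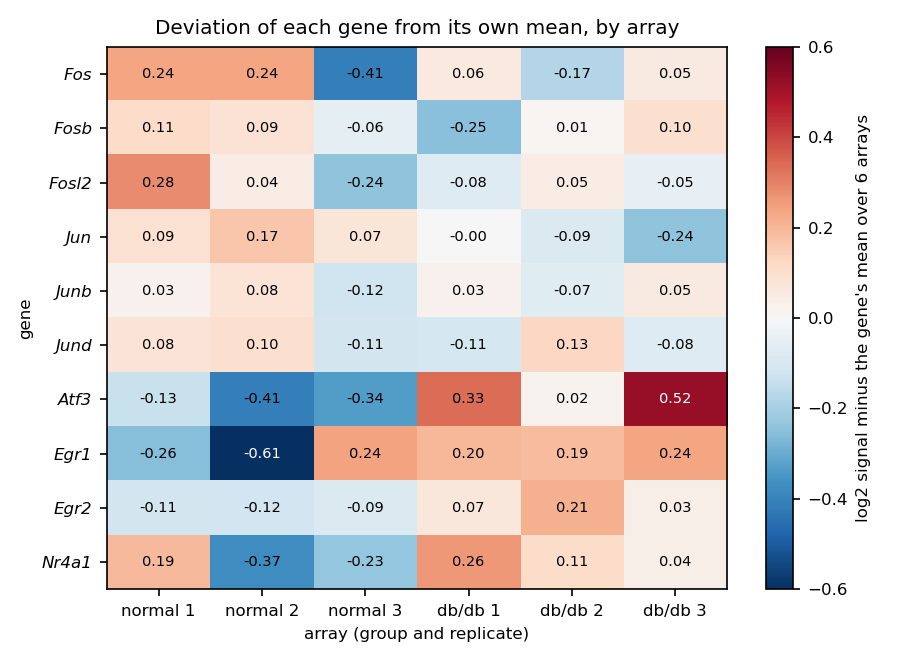
Log2 signal of each gene (rows) in each array (columns) minus the mean of that gene over the 6 arrays. Normal replicate 3 was low for Fos and Fosl2 and high for Egr1, normal replicate 2 was low for Atf3, Egr1 and Nr4a1, and the db/db arrays were above the mean for Atf3, Egr1, Egr2 and Nr4a1.

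Array by array the 10 factors did not rise and fall as 1 group. The lowest of the 6 values lay in normal replicate 2 for 4 genes (Atf3, Egr1, Egr2 and Nr4a1) and in normal replicate 3 for another 4 (Fos, Fosl2, Junb and Jund). The normal arrays had the larger SD for 5 of the 10, namely Fos, Fosl2, Junb, Egr1 and Nr4a1. Averaged over the 10 genes the deviation from the gene mean was 0.05, -0.08 and -0.13 in normal replicates 1 to 3 and 0.05, 0.04 and 0.07 in diabetic replicates 1 to 3. Among 12753 other genes those nearest to this averaged profile by root mean square difference over the 6 arrays were Asic1, Limd2, Chpf, Eif3c and Gm1965, at 0.0168 to 0.0255, where a gene with no change at all would lie at 0.0750. The averaged profile is nearly flat, so these are genes that vary little.

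Other members of the same families were described by the same fit. Of 20 further AP-1 and bZIP genes 0 passed the adjusted test. At an unadjusted p under 0.05 1 was higher and 1 lower, against 3.48% and 2.91% of all tested probesets. The groups did not overlap for 3 higher and 3 lower, against 7.01% and 5.31% of all, and the median change was -0.04. Nfil3, a bZIP repressor tied to the circadian clock, gave 8.56, 9.18 and 9.40 in normal and 7.60, 8.07 and 8.18 in db/db arrays. These did not overlap, at a change of -1.10 ± 0.27 and an adjusted p of 0.572. Batf, a partner of Jun proteins in lymphocytes, went from 6.94 ± 0.16 to 7.32 ± 0.12, a change of 0.37 with an adjusted p of 0.702. Of 5 tested EGR, NR4A and NAB genes 0 passed in either direction, adjusted or not, and all 5 had a lower mean in db/db (46.1% of all tested probesets), with Nr4a2 at -0.31 ± 0.28 and Nab2, a corepressor of EGR proteins, at -0.09 ± 0.15. Nr4a3 lay below the level filter.

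Genes upstream of the factors gave a like count. Of 18 tested genes of SRF, its cofactors and the MAP kinase cascade 0 passed. At an unadjusted p under 0.05 1 was higher and 1 lower, against 3.48% and 2.91% of all tested probesets. The groups did not overlap for 1 higher and 1 lower, against 7.01% and 5.31% of all, and the median change was -0.02. Mapk14, the stress kinase p38 alpha, gave 9.71, 9.71 and 9.86 in normal and 9.52, 9.26 and 9.15 in db/db arrays, without overlap, at -0.45 ± 0.12 (adjusted p = 0.626). Map2k3, which activates p38, went from 8.66 ± 0.13 to 8.98 ± 0.09, at 0.33 (adjusted p = 0.702).

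Other rapid response genes and heat shock proteins are induced by cell isolation as well. Of 31 tested immediate early and rapid response genes 0 passed, 1 was higher and 3 lower at an unadjusted p under 0.05, and the groups did not overlap for 5 higher and 5 lower. Over all tested probesets these shares were 3.48% and 2.91% for the unadjusted p and 7.01% and 5.31% for groups that did not overlap. The median change was 0.01. Another 2 genes of the list, Myc and Ptgs2, lay below the level filter and were not tested. Myc gave 5.60, 5.74 and 5.51 in normal and 7.23, 7.36 and 6.12 in db/db arrays. These did not overlap, at a change of 1.29, but the signal reached 100 in only 2 arrays. Ptgs2 had a change of 0.17 with overlapping groups. Klf4, a flow-responsive repressor of inflammation, gave 9.84, 9.52 and 9.58 in normal and 8.96, 9.04 and 9.02 in db/db arrays, at -0.64 ± 0.11 (adjusted p = 0.376). Trib1, a scaffold of protein degradation, went from 8.30 ± 0.13 to 8.72 ± 0.09, at 0.42 (adjusted p = 0.581). Of 12 tested heat shock proteins and chaperones 0 passed, adjusted or not, and 10 had a lower mean in db/db, as 46.1% of all tested probesets did, with a median of -0.04. Hspb1, a small heat shock protein, gave 10.80, 11.46 and 10.50 in normal and 10.34, 10.33 and 10.39 in db/db arrays (adjusted p = 0.787). Hsph1, a partner of Hsp70, went from 10.56 ± 0.48 to 10.06 ± 0.19, at -0.50 (adjusted p = 0.825). Normal replicate 2 was the highest array for 9 and the lowest for 1 of the 12 heat shock genes. For the 10 AP-1 and EGR factors it was the highest for 3 and the lowest for 4.

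Of 22 genes known as targets of AP-1 or EGR factors 9 lay below the level filter, among them F3, Plau, Il6 and Ccl2. Of the 13 tested 0 passed, and 2 were higher and 1 lower at an unadjusted p under 0.05, against 3.48% and 2.91% of all. The groups did not overlap for 3 higher and 2 lower, against 7.01% and 5.31% of all. The median change was 0.15, beside 0.01 for all tested probesets. Icam1, a ligand of leukocyte integrins that other pathways induce too, gave 8.19, 8.22 and 8.36 in normal and 9.32, 8.89 and 9.19 in db/db arrays, without overlap, at 0.88 (adjusted p = 0.359). Pdgfb, which recruits mesangial cells and pericytes, went from 9.88 ± 0.28 to 9.38 ± 0.18, at -0.50 (adjusted p = 0.752).

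**Figure D4:**
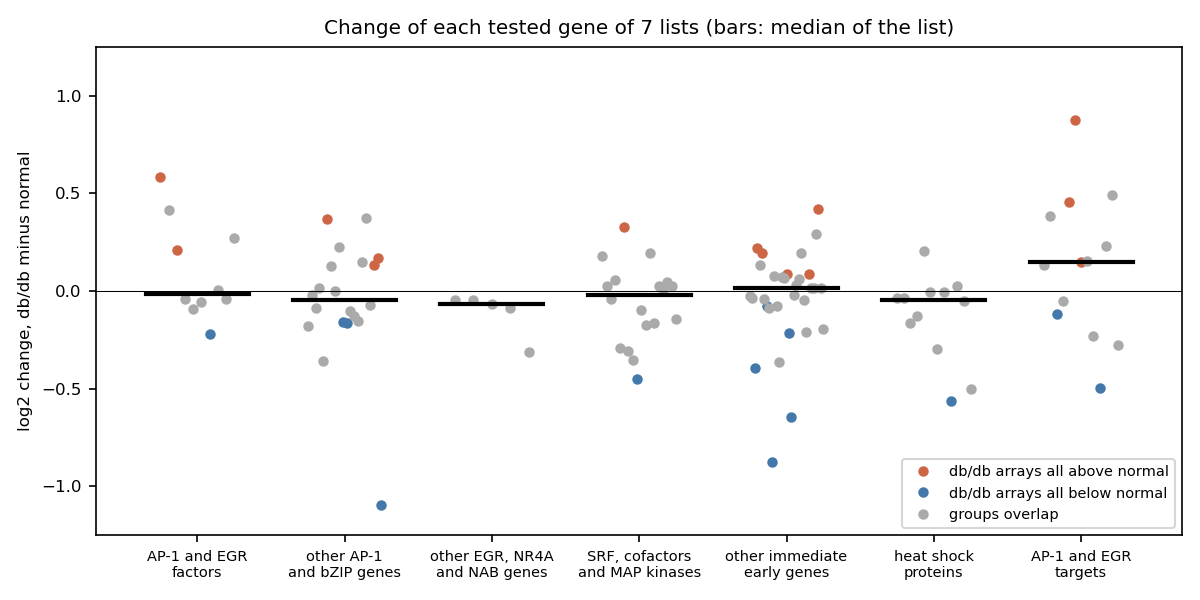
Log2 change, db/db minus normal, of each tested gene (points) of 7 lists, with the median of each list (bars) and colours for genes whose db/db arrays were all above (orange) or all below (blue) the normal ones. List medians lay between -0.07 for the other EGR, NR4A and NAB genes and 0.15 for the AP-1 and EGR targets.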

How the data were processed

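The deposited values were log2 probeset signal, 1 column per array, which the authors made from Affymetrix Mouse Gene 1.0 ST arrays after a single round of RNA amplification. GeneSpring's RMA is the normalisation given in the methods, while MAS5 is the one tool listed in the notes of the submitters. The columns had nearly equal distributions, with sorted values within 0.114 of those of normal replicate 1, so changes are relative to the rest of the array and no further normalisation was applied. Of 35557 probesets 21789 had a single gene symbol in the annotation, 1621 several and 12147 none. The level filter of the study's methods, a linear signal of 100 reached in 3 arrays, kept 20661.

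Groups came from the sample labels and were compared with limma 3.58.1 in R 4.3.3 (lmFit and eBayes, db/db minus normal, two-sided, Benjamini-Hochberg adjustment over all 20661 probesets, threshold 0.05). Errors of changes are limma's SE and intervals are single-gene 95% intervals. A gene was given by its highest-mean probeset. Genes named beside the 10 factors were, per list, those past the test or else the 2 with the smallest p, and the 5 nearest profiles. The members and lists were chosen with earlier results of these data known. Alternatives were other normalisations, level filters, variance priors, weights and features, a replicate block, the methods' t-test and leaving out each array. The fit was first tested on simulated data. Promoters came from RefSeq (GRCm38.p6). Plots used matplotlib 3.10.9 (Python 3.11.15).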

Additional observations from a re-analysis of the deposited data

How the results depend on the processing

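No alternative brought any of the 10 factors past the adjusted test, and the changes of Jun, Atf3, Egr1, Egr2 and Nr4a1 kept their direction in all of them. Only other normalisations, array weights and leaving out arrays could move a change. The remaining alternatives kept each estimate fixed and altered the test alone. With all probesets the count past the adjusted test was 0, except that 1 was lower with 1 probeset per gene (12763 genes). The count of factors higher at an unadjusted p under 0.05, 2 in the fit reported, was 1 with quantile normalization, median centring, a level of 200, the replicate block, array weights and 1 probeset per gene, Atf3 being the gene that remained, and 1 to 2 when single arrays were left out. The count lower was 0 and became 1 (Jun) with no level filter, with the intensity trend with or without a robust prior, and with the methods' t-test, and was 0 to 1 when single arrays were left out. The count whose groups do not overlap was 1 higher at a level of 200, where Egr2 was not tested, and 2 to 3 higher and 1 to 2 lower when single arrays were left out, with Nr4a1 added without normal replicate 1 and Egr1 and Fos without normal replicate 3. Junb, at 0.01, became -0.011 with quantile normalization and -0.011 with median centring. When single arrays were left out the change ran from -0.052 to 0.049 for Junb, from -0.26 to 0.065 for Fos, from -0.17 to 0.0082 for Fosb, from -0.19 to 0.072 for Fosl2 and from -0.11 to 0.0026 for Jund. The labels number the replicates but do not pair them, and deviations from the group means of same-numbered arrays correlated at -0.0039, 0.035 and -0.030, so the replicate block is given only here, with 1 factor at an unadjusted p under 0.05 (Atf3) and 0 adjusted. Signal close to the level filter limits Egr2 and Fosb most, and at a level of 200 Fos, Fosb, Junb and Egr2 were not tested.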
